A study of Mus musculus with 6 samples.

Results

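The Hippo pathway genes examined here are 10 genes: the kinases Lats1, Lats2, Stk3 and Stk4, the scaffold Sav1, the coactivators Yap1 and Wwtr1, and the DNA-binding factors Tead1, Tead2 and Tead4. They were taken by exact gene symbol, with the brightest probe set for a gene that had several, and all 10 were found among the 20193 genes measured. Expression was compared in mouse epiblast stem cells, which model the primed state of the epiblast after implantation and were kept in medium holding Activin at 20 ng/ml and bFGF at 12 ng/ml. The Dicer-deleted group (Dicer -/-) had been given 0.3 µM 4-OH-tamoxifen for 3 days and kept 2 more days without it, and its RNA was taken on day 5. The control group carried the same floxed alleles (Dicer fx/fx), was plated and split in parallel and received no tamoxifen. Exposure to the drug and the start of recombination therefore cannot be told apart from loss of Dicer. The array names number the controls ahead of the deleted samples, so array order cannot be told apart from deletion either. The recombinase that tamoxifen acts on, and whether the line is 1 clone, are not given in the sources used here. Each of 3 independent deletion experiments, numbered 18, 19 and 20, gave 1 deleted and 1 control sample, and each of the 6 samples was hybridised to 1 Affymetrix mouse gene array.

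In the Hippo pathway, MST1 and MST2, the products of Stk4 and Stk3, act with the scaffold SAV1 to activate the kinases LATS1 and LATS2. These phosphorylate YAP and TAZ, the products of Yap1 and Wwtr1, which are then kept in the cytoplasm or degraded; unphosphorylated YAP and TAZ enter the nucleus and bind TEAD factors on DNA. The pathway is best known for limiting organ growth, and in the early mouse embryo TEAD4 with YAP directs the outer cells towards trophectoderm. Transcript levels, which are what the arrays measure, do not show how much of any of these proteins is phosphorylated or nuclear.

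Dicer cuts precursors into mature microRNAs, and the families that prevail in pluripotent cells share related seeds, the bases that pair with a target. The mature sequences of 4 family members from RefSeq (GRCm38.p6) are shown because they belong to the RNAs that Dicer processes. LATS2 is also a reported target of the human counterparts of the first of these families. Capitals mark the seed, bases 2 to 8. The first pair shares one seed and the second pair another, which is the same run of letters moved by a single base.
miR-294-3p: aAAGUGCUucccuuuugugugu
miR-302b-3p: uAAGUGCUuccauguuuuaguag
miR-17-5p: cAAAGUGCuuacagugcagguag
miR-93-5p: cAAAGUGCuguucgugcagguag
Mature microRNAs, and their target sites in the 10 transcripts, were not analysed here.

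TEAD factors recognise the DNA word GGAATG or its reverse complement CATTCC. Either word was looked for in the 250 bases upstream of the transcript starts listed by RefSeq (GRCm38.p6). Of the 10 genes, 7 had an entry, and the word was present for 3 of them, Wwtr1, Yap1 and Sav1. Over all 27025 genes with an entry it was present for 14.4%. Among the published YAP and TAZ target genes described further on, 15 had an entry and the word was present for 6 (40.0%). Each window is shown with the word in capitals between flanking bases, read along the strand of the gene. Windows are given for Wwtr1, Yap1 and Sav1, and for Ccn1 and Ankrd1, widely used YAP target genes with array values further on. Ankrd1 holds the word at 2 places. No window was found for Ccn2, another such target gene.
Wwtr1, chr3:57576029-57576058, minus strand: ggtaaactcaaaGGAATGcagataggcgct
Yap1, chr9:8004720-8004749, minus strand: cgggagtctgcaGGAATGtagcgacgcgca
Sav1, chr12:69987091-69987120, minus strand: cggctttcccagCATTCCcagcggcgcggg
Ccn1, chr3:145650071-145650100, minus strand: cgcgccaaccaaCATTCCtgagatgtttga
Ankrd1, chr19:36120037-36120066, minus strand: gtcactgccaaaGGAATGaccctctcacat
Ankrd1, chr19:36119950-36119979, minus strand: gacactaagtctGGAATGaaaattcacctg
A match is a description of these letters and not evidence of binding. The entries without the word were those of Lats1, Lats2, Stk4 and Tead2, and Stk3, Tead1 and Tead4 had no entry.

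The samples followed their labels: Dicer1 intensity was 602, 553 and 645 in deleted cells and 1836, 2079 and 2098 in controls. Marker levels differed between cultures. None of the marker genes listed for 6 cell states passed the limma test between deleted and control cells, with or without the block, and none is listed at 0. Of the primed and general pluripotency markers, Pou5f1, the gene of OCT4, lay between 6268 and 7636 in deleted cells and between 6348 and 7477 in controls. The 11 of them summed to 43896, 46467 and 36619 in deleted cells of experiments 18, 19 and 20 and to 39857, 45451.5 and 46014 in controls. In experiment 20 deleted cells stood at 0.424 of control for Nanog, 0.696 for Fgf5, 0.698 for Dnmt3b and 0.775 for Otx2, the lowest ratios of the 11. The same genes, in that order, were at 1.22, 1.52, 1.36 and 1.18 of control in experiment 18. In experiment 19 they were at 0.978, 0.868, 1.495 and 1.149. Of the 11, 1 was higher in deleted cells in all 3 experiments, Sox2 (1.04-fold, 1.17-fold and 1.12-fold), and 2 were lower in all 3. The 7 naive markers summed to between 1775 and 2035 in deleted cells and between 1516 and 2366 in controls. Zfp42 was dim (61.0 to 66.0 in deleted cells and 66.0 to 76.3 in controls), while Klf2, Klf4 and Tfcp2l1 were of middle level. Of the 7, 1 was higher in deleted cells in all 3 experiments, Tfcp2l1 (15.2% of all genes). Lower in all 3 were 3 of the 7, Zfp42 and Klf4 among them (28.3% of all genes). The 8 fibroblast markers summed to 2041 to 2241 in deleted cells and 2034 to 2235 in controls, the 7 trophectoderm markers to 11522 to 18453.5 in deleted cells and 10883 to 13818 in controls, and the 6 neural markers to 4081 to 6529 in deleted cells and 3348 to 5270.45 in controls. Such sums mostly follow their brightest genes. The keratin genes Krt8 and Krt18 made up most of the trophectoderm sum, with 4808 and 5922 in deleted cells of experiment 18 and 11262 and 6288 in those of experiment 20. Experiment 20 stood apart in both groups. The 9 markers of primitive streak and endoderm summed to 30997 in deleted cells and 33008 in controls of experiment 20, against 4599 and 9049.6 in deleted cells and 3520.0 and 6386 in controls of experiments 18 and 19. Genes within that sum differed in opposite directions. The streak gene T was higher in deleted cells in all 3 experiments, by 2.91-fold, 4.43-fold and 1.68-fold. So were Sox17 (1.03-fold, 1.53-fold and 1.18-fold), Foxa2 (1.21-fold, 1.10-fold and 1.30-fold) and Cer1 (1.57-fold, 1.45-fold and 1.05-fold). These are 4 of the 9 (15.2% of all genes, 23.3% of those at or above the median level), and 1 was lower in all 3 (28.3% and 21.6%). Mixl1, Eomes, Gsc and Gata6 in experiment 20 were at 0.363, 0.540, 0.476 and 0.426 of control. In arrays of whole cultures, fewer cells of a type and less RNA per cell cannot be told apart. The part of these marker differences in the results was not tested. Values without experiment 20 are given for each of the 10 genes whose difference moves by over 1.5 times without it.

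None of the 10 genes passed the test for a difference between deleted and control cells. In limma's fit over all 20193 genes, 0 rose and 0 fell at a Benjamini-Hochberg adjusted p under 0.05; over all genes 0% rose and 0.00495% fell, which was Dicer1 alone. At an unadjusted p under 0.05 the count was again 0 of 10 (6% of all genes), and with the experiment as a block it was 1 of 10 (17.1% of all genes), the MST2 gene Stk3. The median difference of the 10 genes was 0.03 on the log2 scale, against -0.04 over all genes. A higher mean in deleted cells was found for 6 of 10, against 37.8% of all genes and 50.3% of genes at or above the median level, where all 10 lie. The largest single differences belonged to the kinases Lats2, Lats1 and Stk3, which were all higher in deleted cells, and none of the 10 reached a mean change of 1.5-fold (1.07% of all genes did).

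**Figure D1:**
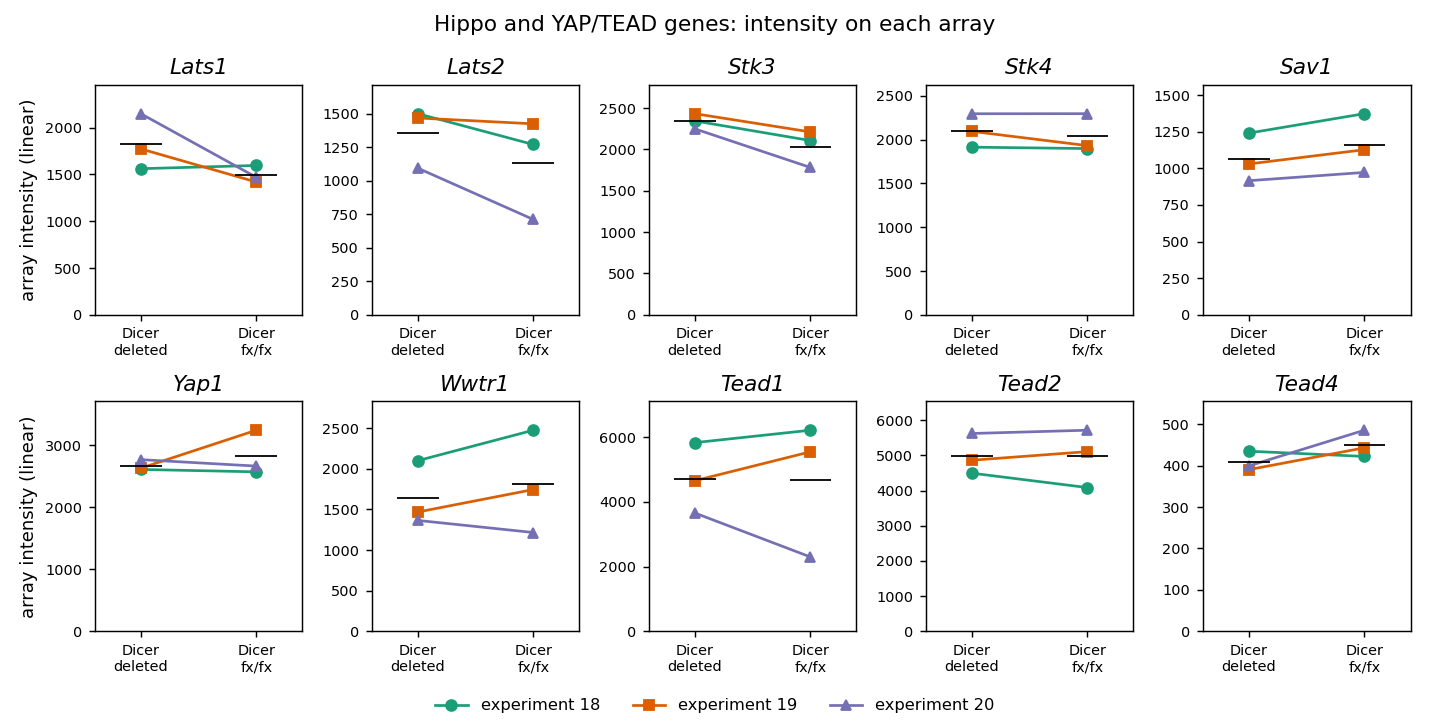
Linear array intensity of the 10 genes (y axis, from 0) in Dicer-deleted and Dicer fx/fx cells. Lines join the arrays of 1 experiment and short bars are arithmetic means of 3 arrays. Stk3 is the gene whose deleted and control values do not overlap, and for Lats2, Wwtr1 and Tead1 the lowest control point is that of experiment 20.

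Of the LATS kinases, which phosphorylate YAP and TAZ, Lats2 (Entrez 50523) had intensities of 1499.6, 1468 and 1093 in deleted cells of experiments 18, 19 and 20 and of 1269.8, 1424 and 711 in controls. It was higher in deleted cells in all 3 experiments, by 1.18-fold, 1.03-fold and 1.54-fold, but the groups overlapped because both arrays of experiment 20 were low. The mean log2 level was 10.39 ± 0.25 in deleted cells and 10.09 ± 0.54 in controls (SD, n = 3 each), a limma difference of 0.30 ± 0.29 (SE) and its adjusted p was 0.936. The blocked fit, which takes out the experiment, gave an SE of 0.12 and an adjusted p of 0.297. The size rests on experiment 20: the difference was 0.14 without that experiment and -0.0050 without its control array alone. The 95% interval of the difference was -0.42 to 1.03 without the block and -0.01 to 0.61 with it.

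Lats1 (Entrez 16798), the paralogue with the same kinase role, had intensities of 1560.4, 1772 and 2148 in deleted cells and of 1595, 1418 and 1469 in controls. Deleted cells of experiment 18 were at 0.978 of their control, and those of experiments 19 and 20 were 1.25-fold and 1.46-fold higher. The difference was 0.28 ± 0.13 with a limma adjusted p of 0.833, or 0.316 with the block, and without experiment 20 it was 0.14. Unlike Lats2, its control in experiment 20 lay close to the other controls, within 0.03 log2 units of their mean.

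The upstream kinases differed in how steady they were. Stk3 (Entrez 56274), which encodes MST2, had 2345, 2433 and 2249 in deleted cells against 2108, 2212 and 1783 in controls. Every deleted array was above every control array, by 1.11-fold, 1.10-fold and 1.26-fold within experiments. Such a separation with deleted cells higher was found for 1 of the 10 genes, and for 3.26% of all genes; with deleted cells lower it was found for 0 of the 10, and for 9.93% of all genes. The difference of 0.21 ± 0.10 had a limma adjusted p of 0.833, or 0.255 with the block, where the interval was 0.03 to 0.38. The exact two-sided permutation test gave p = 0.1, which is the lowest value possible for groups of 3. Stk4 (Entrez 58231), which encodes MST1, had 1914, 2094 and 2296 in deleted cells and 1898, 1932 and 2297 in controls. Its values were set by the experiment more than by deletion, with a difference of 0.04 ± 0.11, an interval of -0.23 to 0.32 and a difference of 0.06 without experiment 20.

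Sav1 (Entrez 64010), the scaffold that joins MST kinases to LATS, went the other way by a small and regular amount. Its intensities were 1240.4, 1029.9 and 916 in deleted cells and 1373, 1127 and 972 in controls. Deleted cells were at 0.903, 0.914 and 0.942 of their own control, the narrowest spread of the 10 genes, with an SD of 0.03 log2 units between the 3 differences. Because levels differed more between experiments than with deletion, the groups overlapped and the difference of -0.12 ± 0.17 had a limma adjusted p of 0.965. In the blocked fit its SE was 0.06 and the adjusted p was 0.346.

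The coactivators did not pass either. Yap1 (Entrez 22601) had 2609, 2629 and 2767 in deleted cells and 2570.4, 3241 and 2663 in controls. Its 3 deleted arrays lay within 0.08 log2 units of each other, and the control of experiment 19 was the highest array. The difference was -0.08 ± 0.10 (limma adjusted p = 0.964), with an interval of -0.33 to 0.18, and was -0.14 without experiment 20. Wwtr1 (Entrez 97064), which encodes TAZ, had 2101, 1469 and 1365 in deleted cells and 2475, 1745 and 1217 in controls. Deleted cells were at 0.849 and 0.842 of control in experiments 18 and 19 and 1.12-fold higher in experiment 20. Its difference of -0.11 ± 0.30 had a limma adjusted p of 0.993, or 0.621 with the block, and was -0.24 without experiment 20.

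Among the TEAD factors, which carry YAP and TAZ to DNA, Tead1 (Entrez 21676) varied the most between arrays. It had 5830.0, 4654 and 3657 in deleted cells and 6214, 5546 and 2301 in controls. Deleted cells were at 0.938 and 0.839 of control in experiments 18 and 19 and 1.59-fold higher in experiment 20. The difference of 0.11 ± 0.42 (limma adjusted p = 0.995) turned to -0.17 without experiment 20. A second Tead1 probe set gave the same order, with 4019, 3479 and 2989 in deleted cells and 4336, 3853 and 1822 in controls.

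Tead2 (Entrez 21677), the family member known for expression in early embryos and neural cells, had 4495, 4862 and 5623 in deleted cells and 4086, 5107 and 5715 in controls. The groups overlapped along their whole range and the difference was 0.01 ± 0.15, or 0.03 without experiment 20. Tead4 (Entrez 21679), the trophectoderm factor, had 435, 390.1 and 399 in deleted cells and 422, 443 and 485 in controls. Deleted cells were 1.03-fold higher in experiment 18 and at 0.881 and 0.823 of control in experiments 19 and 20, a difference of -0.14 ± 0.08 (limma adjusted p = 0.854) that was -0.07 without experiment 20. Trophectoderm markers did not share 1 direction: in experiment 20 deleted cells had 1.53-fold of control for Cdx2, which TEAD4 activates in the embryo, 0.406 for Gata3 and 0.691 for Tfap2c. Cdx2 was dim on every array (123 to 222) and was at 0.863 and 0.894 of control in experiments 18 and 19. Gata3 was at 0.967 and 0.990 there, and Tfap2c was lower in all 3 experiments. In experiments 18 and 19 alone, 5 of the 7 markers were lower in both (41.4% of all genes) and 1 was higher in both (24.6%).

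For 6 of the 10 genes, Stk3, Stk4, Sav1, Yap1, Tead2 and Tead4, the 95% interval of the difference lay within a 1.5-fold change in either direction, and with the experiment as a block Wwtr1 joined them. For Lats1, Lats2 and Tead1 a change of that size cannot be set aside with 3 arrays a group.

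**Figure D2:**
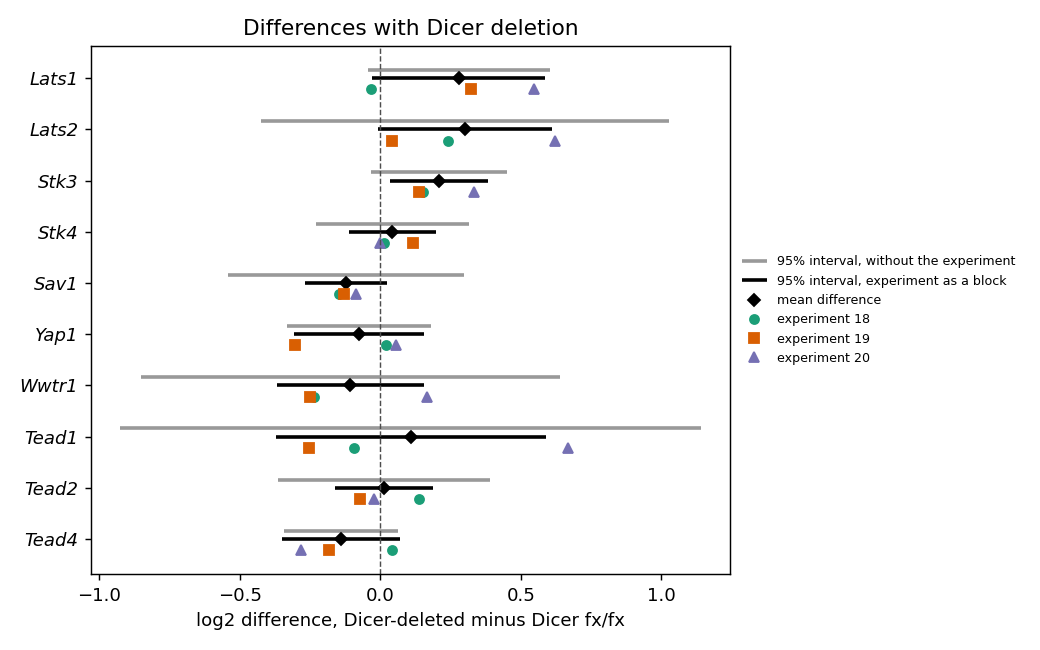
Log2 difference of Dicer-deleted minus Dicer fx/fx cells (x axis) for each gene. Diamonds are means, grey and black lines are 95% limma intervals without and with the experiment as a block, and coloured points are the 3 experiments. The points of Stk3 all lie above 0 and those of Sav1 all below it, while the intervals of Lats2, Wwtr1 and Tead1 narrow most with the block.

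Direction within experiments was shared by few of the genes. Lats2 and Stk3 were higher in deleted cells in all 3 experiments, which is 2 of 10, against 15.2% of all genes and 23.3% of genes at or above the median level, where all 10 lie. Sav1 was lower in all 3, which is 1 of 10, against 28.3% of all genes and 21.6% of those at or above the median level. In experiments 18 and 19 alone, 3 of the 10 were higher in both, Lats2, Stk3 and Stk4 (24.6% of all genes, 35.8% of those at or above the median level). Another 3 were lower in both, Sav1, Wwtr1 and Tead1 (41.4% and 32.1%). Wwtr1 and Tead1 thus lost their shared direction in experiment 20. With 1 pair of arrays per experiment, a difference between experiments in the size of the change could not be tested.

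For Tead1, Lats2 and Wwtr1 the gap between control cultures was wider than the difference with deletion in any experiment. Tead1 in experiment 20 was 1.42-fold below the mean of experiments 18 and 19 in deleted cells and 2.55-fold below it in controls. Lats2 was 1.36-fold below it in deleted cells and 1.89-fold below it in controls. Wwtr1 was 1.29-fold below it in deleted cells and 1.71-fold below it in controls. For these 3 genes the gap was thus smaller among deleted arrays than among controls. A control at least 0.5 log2 units below the other controls was found for 3 of the 10 genes, against 9.14% of all genes and 15.4% of those at or above the median level. Smaller gaps in experiment 20 were found for Sav1 (-0.30 log2 units in deleted cells and -0.36 in controls) and Stk3 (-0.09 and -0.28). Tead2 in experiment 20 was 0.27 log2 units above the other experiments in deleted cells and 0.32 above them in controls. Yap1 was 0.08 above them in deleted cells and -0.12 from them in controls. The streak and endoderm markers given above move with these gaps, and their part in them was not tested.

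**Figure D3:**
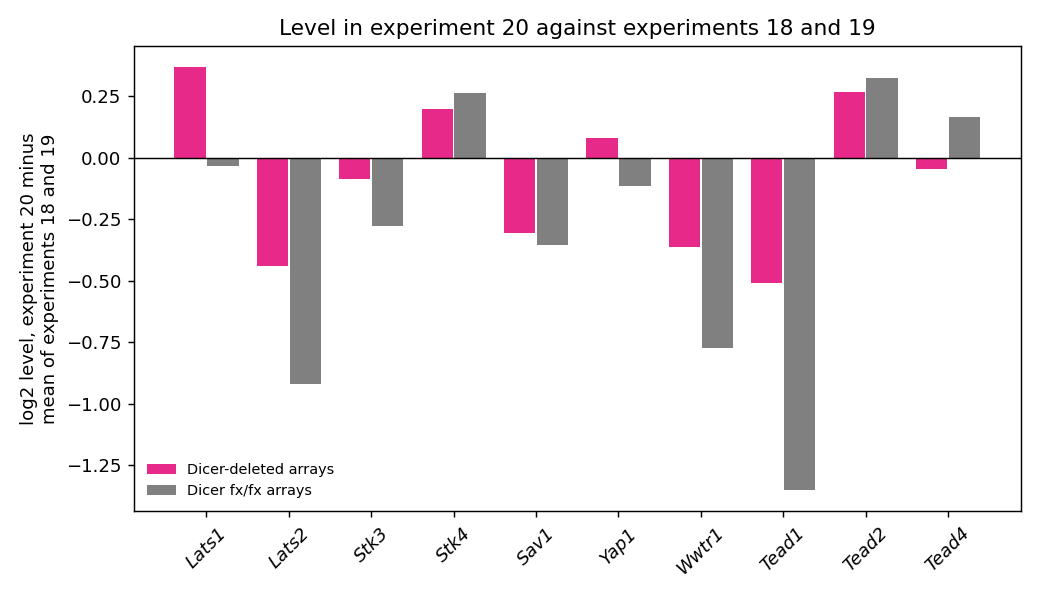
Log2 level in experiment 20 minus the mean of experiments 18 and 19 (y axis), among Dicer-deleted arrays and among Dicer fx/fx arrays, 1 array set against 2 in each bar. Controls lie 1.35 below for Tead1, 0.92 below for Lats2 and 0.77 below for Wwtr1, and Lats1, Stk4 and Tead2 do not show such a fall.

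The output of the pathway was read from a published signature of 22 YAP and TAZ target genes, drawn up from human cancers, of which Lats2 itself is 1. All 22 were measured, and Amotl2 and Ptpn14 are also counted among the other regulators below. None passed the limma test over all genes, with or without the block. Their mean was higher in deleted cells for 18 of 22 (37.8% of all genes, 50.3% of those at or above the median level). The median difference was 0.16, against -0.04 over all genes and 0.00087 over genes at or above the median level. In all 3 experiments 11 of 22 were higher (15.2% of all genes, 23.3% of those at or above the median level) and 2 of 22 were lower (28.3% and 21.6%). At an unadjusted p under 0.05, 3 of 22 were higher (2.22% of all genes, 3.86% of those at or above the median level) and 0 lower (3.77% and 2.87%). With the block 7 of 22 were higher (8.04% and 13.6%) and 0 lower (9.05% and 9.5%). By experiment, the median of the 22 was 0.21, 0.0041 and 0.41 for 18, 19 and 20. In experiments 18 and 19 alone, 11 of 22 were higher in both (24.6% of all genes, 35.8% of those at or above the median level) and 3 lower in both (41.4% and 32.1%), with a median of 0.08. The streak gene T was also higher in deleted cells in every experiment, as given above, and its part in these counts was not tested.

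The steadiest signature gene was Dock5, whose product activates the small GTPase Rac. It had 1607, 1601 and 1578 in deleted cells and 1062, 1037 and 1007 in controls. The arrays of each group lay close together and far from those of the other, with a difference of 0.62 ± 0.05 and a limma adjusted p of 0.403, or 0.138 with the block. Asap1, a GTPase-activating protein for ARF proteins, had 1663, 1709.7 and 1878 in deleted cells and 1351, 1216 and 1255 in controls, a difference of 0.46 ± 0.08 (limma adjusted p = 0.824). Myof, the membrane repair gene myoferlin, had 357, 353 and 470.1 in deleted cells and 241, 287 and 321 in controls, a difference of 0.47 ± 0.16 (limma adjusted p = 0.831). F3, the tissue factor gene, had 636, 699 and 461 in deleted cells and 433, 507 and 368 in controls, a difference of 0.45 ± 0.20 (limma adjusted p = 0.833). For Dock5, Asap1 and Myof the groups did not overlap, nor did they for Axl, another signature gene. For F3 they did, since both arrays of experiment 20 were low. Separation with deleted cells higher was found for 3.26% of all genes and 5.04% of those at or above the median level. Dock5, Asap1, Myof and F3 were named for their low unadjusted p, a choice that favours separated genes.

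The classical YAP targets behaved otherwise. Ccn2, the connective tissue growth factor gene, had 8929.8, 7505 and 2059 in deleted cells and 6868, 8641 and 1784 in controls. Ankrd1 had 768, 535 and 157 in deleted cells and 683, 1057 and 113 in controls. Ccn1 had 7852, 6889.6 and 4102 in deleted cells and 7049.6, 7898 and 3978 in controls. All 3 were higher with deletion in experiments 18 and 20 and lower in experiment 19, with differences of 0.13 ± 0.82, -0.11 ± 1.01 and 0.00082 ± 0.36. With the experiment as a block the SEs were 0.12, 0.28 and 0.086. In all 3 the arrays of experiment 20 were the lowest in both groups, as for Tead1, Lats2 and Wwtr1. A control of experiment 20 at least 0.5 log2 units below the other controls was found for 11 of the 22 signature genes, against 9.14% of all genes and 15.4% of those at or above the median level.

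**Figure D4:**
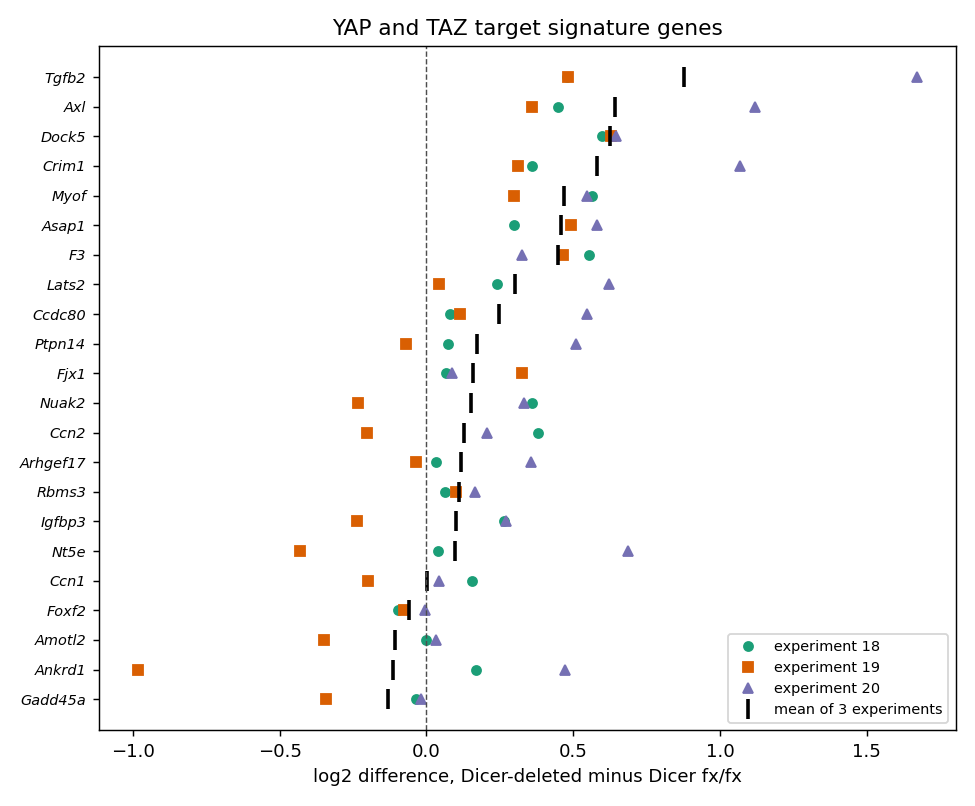
Log2 difference of Dicer-deleted minus Dicer fx/fx cells (x axis) for the 22 signature genes, in order of their mean (black ticks), with 1 coloured point per experiment. The points of Dock5 lie together at 0.60 to 0.65, while those of Ankrd1 run between -0.98 and 0.47.

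Of 33 other regulators of the pathway 32 were matched, and 0 passed the limma test with or without the block. Their means were higher in deleted cells for 18 (37.8% of all genes, 50.3% of those at or above the median level), with a median of 0.04. In all 3 experiments 11 were higher (15.2% and 23.3%) and 7 lower (28.3% and 21.6%). Stk38l, an NDR kinase gene related to the LATS genes, had 814, 901 and 823 in deleted cells and 747, 594 and 609 in controls, a difference of 0.39 ± 0.11 (limma adjusted p = 0.824). Taok1, whose product phosphorylates MST kinases, had 1982, 2173 and 1988 in deleted cells and 1836, 1649.9 and 1609 in controls, a difference of 0.27 ± 0.08. In both genes every deleted array was above every control array, as in 3.26% of all genes and 5.04% of those at or above the median level. Nf2, which encodes the upstream activator Merlin, had 1473, 1716 and 1468 in deleted cells and 1679, 1938 and 2094 in controls, a difference of -0.29 ± 0.11. Dchs1, a large cadherin that binds FAT4, had 397, 627 and 763 in deleted cells and 279.5, 396 and 457 in controls. It was higher by 0.50, 0.66 and 0.74 log2 units within experiments, with a limma adjusted p of 0.833, or 0.138 with the block. By the same blocked fit the polarity gene Crb3 (-0.40) and the scaffold gene Wwc1, which encodes KIBRA (-0.45), were lower in all 3 experiments and the angiomotin family gene Amotl1 (0.30) was higher in all 3, with adjusted p of 0.15, 0.153 and 0.207.

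The STRIPAK phosphatase complex removes activating phosphates from MST kinases. Of 15 listed genes 13 were matched, and 0 passed. A higher mean was found for 9 (37.8% of all genes, 50.3% of those at or above the median level). In all 3 experiments 4 were higher (15.2% and 23.3%) and 1 lower (28.3% and 21.6%). Strn, the striatin scaffold gene, had 858, 935 and 962 in deleted cells and 698, 734 and 743 in controls. Every deleted array of Strn was above every control, as in 3.26% of all genes and 5.04% of those at or above the median level. Its difference was 0.34 ± 0.07 (limma adjusted p = 0.824, or 0.15 with the block). Sike1, which encodes another STRIPAK subunit, differed by -0.21 ± 0.10, and the further complex genes Strn3 and Mob4 both by 0.12.

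Among 12 partners of TEAD and YAP, comprising Tead3, the VGLL cofactors and the 14-3-3 proteins that hold phosphorylated YAP, 0 passed. A higher mean was found for 7 of them (37.8% of all genes, 50.3% of those at or above the median level). In all 3 experiments 3 were higher and 3 lower, near the shares of 23.3% and 21.6% in genes not under the median level (15.2% and 28.3% of all genes). Vgll3, a TEAD cofactor gene, had 287, 319 and 429 in deleted cells and 262, 235 and 219 in controls, a difference of 0.51 ± 0.17 (limma adjusted p = 0.824). Vgll4, whose product competes with YAP for TEAD, had 2933, 2269 and 2683 in deleted cells and 2366, 2118 and 1815 in controls, a difference of 0.32 ± 0.14 (limma adjusted p = 0.833). Vgll2, of middle level, differed by -0.15, and the dimmer Vgll1 by -0.13.

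The genes whose 6 array values were most like those of a Hippo gene were sought in the 10097 genes whose level was not under the median, by the Euclidean distance of log2 values centred on each gene's mean. Nearest to Yap1 were Mgat5b at 0.058, Tead3 at 0.088 and Gtf2ird1 at 0.101. Tead3 had 662, 725 and 738 in deleted cells and 683, 868 and 697 in controls, so that like Yap1 it was highest in the control of experiment 19. Nearest to Lats2 were Usp13 at 0.067, St3gal5 at 0.118 and 1110003E01Rik at 0.135, all with their lowest array in the control of experiment 20.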

How the data were processed

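Each of the 6 RNA samples has its own Affymetrix MoGene 1.0 ST array. The authors used RMA in Affymetrix Expression Console 1.2, as named in the submitters' processing notes, and the annotation is of mm9, per the file headers. The authors deposited a linear intensity for each array, with array medians of 247.7 to 260.1, and a log2 value centred on the probe set's median over the arrays. The deposited log2 values equal those recomputed from the intensity to within 2.31e-06, and the deposited series table equals them. Since RMA sets all arrays to 1 distribution, a change in total RNA would not show. Levels of different genes come from different probes and were not tested against each other. The marker sums, the words dim and middle, and the split at the median level are rough descriptions for that reason.

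Probe sets naming 1 gene were kept, 1 per gene, the brightest by mean log2 intensity, which gave 20193 genes; 0 columns of per-sample values were left unused. Deleted and control arrays were compared with limma 3.58.1 under R 4.3.3, by lmFit and eBayes with no term but the group. P-values were adjusted by Benjamini-Hochberg across the 20193 genes, and a gene was called under 0.05. In the text ± after a log2 difference is the SE of that fit, n = 3 arrays per group. Alternatives were the experiment as a block, a level filter, trend and robust settings, 2 other scalings, the mean of probe sets, array weights, other thresholds, the series table, and leaving out each array and experiment; counts over experiments 18 and 19 alone were added after the data were seen. The labels describe each experiment as 1 control and 1 deleted sample handled together, so experiment numbers pair the samples; deviations from group means correlated across genes at 0.83, 0.61 and 0.80. The fits were tested on simulated data with known changes in 200 of the 20193 genes. Of changes of 0.6 log2 units, 21.6% were recovered without the block and 38.8% with it. Of changes of 1.7 log2 units, 76.6% and 91% were recovered. Small changes were thus often missed by both fits. Far fewer genes passed in the real arrays, where the Benjamini-Hochberg cut-off was therefore stricter. The shares recovered may thus overstate what the fits would find there.

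The genes and lists were chosen with earlier results of these data known. Named genes were the 10, Dicer1, and from each pathway list any gene called, otherwise the 4 of lowest unadjusted p in either fit, with the brightest markers and the 3 nearest genes to Lats2 and Yap1. Ccn1, Ccn2, Ankrd1, Axl, Cdx2, Tfap2c, Zfp42, Nanog, Fgf5, Dnmt3b, Sox2, Mixl1, Gsc, Gata6, Sox17 and Foxa2 were named after their values were seen. Of the brightest markers, those not printed by name are part of the sums of their lists. A misspelt symbol in the STRIPAK list (Cttnbp2nl) was corrected after the data were seen. One gene that the rule names is not reported here. Older array symbols (Ctgf, Cyr61 and others) were matched to current ones. Promoter and microRNA sequences are from RefSeq tables. The plots come from matplotlib 3.10.9 under Python 3.11.15.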

Additional observations from a re-analysis of the deposited data

How the results depend on the processing

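The count of the 10 genes past the threshold was 0 under all alternatives run, including an adjusted p under 0.1 and every fit with the replicate block, which changed no call among the 10. Dicer1, at -1.74, lost its call in 13 of 20 settings, among them the block (adjusted p = 0.0666). The median difference of the 10, 0.03 in the reported fit, was -0.05 with array weights and 0.02 with quantile normalization again; leaving out an array or an experiment gave -0.04 to 0.08. The number with 1 direction in all experiments, 3, was 6 without experiment 18, 4 without experiment 19 and 6 without experiment 20, since fewer experiments need to share a sign. Differences changed sign for Tead1 with array weights (-0.11), and when arrays or experiments were left out, with a range of -0.34 to 0.37 for Tead1, -0.12 to 0.12 for Tead2, -0.36 to 0.15 for Wwtr1, -0.14 to 0.038 for Yap1, -0.023 to 0.13 for Stk4, -0.24 to 0.0094 for Sav1 and -0.0050 to 0.50 for Lats2. The cause was not tested, except that a fit lacking a single array no longer balances the experiments. Lats2 without the control of experiment 20 was -0.0050, Stk4 without the deleted array of experiment 20 was -0.023, Tead1 without the control of experiment 20 was -0.34 and without experiment 20 -0.17, also with the replicate block; Yap1 without experiment 19 was 0.038 and Tead2 without experiment 18 was -0.047, with or without the block. Lats1 (0.14 to 0.43), Stk3 (0.12 to 0.27) and Tead4 (-0.23 to -0.07) kept their sign in all fits run. The series table holds the same values and tests nothing. The 2 scalings moved the median of all genes by 0.023 (quantile) and 0.0046. The number of arrays limits the precision.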
